A study of Arabidopsis thaliana with 8 samples.

Results

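Reads that fell in introns were compared with reads that fell in exons of the same locus, between 4 libraries of the homozygous smn2 mutant and 4 wild-type (WT) libraries of Arabidopsis thaliana. The measure was the intron to exon read ratio, printed below as intron reads per 100 exon reads. Loci entered if the table gave them an exon length above 0 and if they averaged at least 10 intron and 10 exon reads over the 8 libraries. This left 2762 of 28642 loci, of which 2750 were nuclear and 12 mitochondrial, and 2741 were protein coding in RefSeq. The rule used no genotype difference, but it did use the reads tested: 2180 loci averaged at least 10 intron reads in both genotypes, 211 only in smn2 and 371 only in WT.

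All plants were whole seedlings of the accession Landsberg erecta, grown for 14 days on GM medium and treated with 0.1 µM flg22, the flagellin peptide that plants perceive, for 0 h or 4 h. The 4 groups were therefore WT at 0 h, WT at 4 h, smn2 -/- at 0 h and smn2 -/- at 4 h, with 2 biological replicates each, numbered 910 and 918. The labels do not name the allele or say how many plants were pooled, and no untreated 4 h group was analysed here, so a change between times holds flg22, handling and time of day together. Poly(A) RNA was purified before the libraries were made.

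SMN2 is the gene HEN2, a helicase that feeds RNA to the nuclear exosome, the complex that degrades RNA from its 3′ end; this identity is background knowledge and not from the labels. In plants HEN2 is known for the removal of misprocessed transcripts, among them transcripts that end early at a poly(A) site inside an intron. Reads in introns of polyadenylated RNA can come from such early ends, from introns that were kept, from unannotated exons or from an overlapping gene. The series' title speaks of mapping degraded regions that depend on SMN2, and the ratio asks at which loci intron reads stood higher in the mutant relative to exon reads.

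The table gives intron reads as 1 sum per locus, so a read can be placed in a particular intron only where the locus has a single intron. Of the loci tested, 91 had exactly 1 intron in RefSeq with the length the table implies, and 11 of them were among the loci called below. The intron of GSTU5, which is short enough to print whole and belongs to 1 of the 12 largest increases, follows, read 5′ to 3′ on the gene's strand from the RefSeq assembly TAIR10.1, with the first and last pair of bases and each AATAAA, the canonical poly(A) signal, in capitals.
GSTU5: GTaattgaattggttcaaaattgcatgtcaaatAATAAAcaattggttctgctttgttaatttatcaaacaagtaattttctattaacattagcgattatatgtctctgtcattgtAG
The GSTU5 intron is 118 bp long and lies at chr2:12625131-12625248 on the minus strand. It separates coding exons, starts with GT and ends with AG, and holds 1 AATAAA on the gene's strand.

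The first 30 bases of longer single introns of called loci are shown for comparison, for a coding intron of 371 bp (EBF1, chr2:10849880-10850250, minus strand), of 1287 bp (UGT85A1, chr1:7904804-7906090, minus strand) and of 1991 bp (AT2G29995, chr2:12797256-12799246, minus strand), with the splice-site GT in capitals.
EBF1: GTaagcttcctgatctctgaattttttttc
UGT85A1: GTacgtattcttacattgattattgattta
AT2G29995: GTactttttctccctctttttatttttctg
All 91 single introns started with GT and ended with AG. AATAAA was found on the gene's strand in 7 of the 11 called introns and in 25 of the 80 others (35.2% of all 91), and on either strand in 10 and 52 (68.1% of all 91). The median length was 463 bp in the called introns and 526 bp in the others. These matches describe the letters of the introns, and no test was made on them.

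The libraries held 6856882 to 15791296 gene reads, of which 20.9% to 29.8% fell on the 2762 loci. WT libraries were deeper on average (11271000 ± 3155600 gene reads, SD, n = 4) than smn2 libraries (8136400 ± 1327700, n = 4; exact permutation p = 0.0857, two-sided), with overlapping ranges. In each of the 4 pairs of the same time and replicate, the WT library was the deeper one (p = 0.0556 permuting within time and p = 0.125 within time and replicate, exact and in both cases the smallest possible). The part of this depth difference in the results was not tested. The file headers place replicates 910 and 918 in different sequencing runs, and loci without an exon length held 28.9% to 37.7% of all gene reads for replicate 910 and 43.5% to 47.5% for replicate 918. The 3 shoot markers (RBCS1A, LHCB1.1, RCA) and 5 root markers (PYK10, SULTR1;2, EXPA7, COBL9, CASP1) were detected in every library of the seedlings, EXPA7 being lowest at 5 reads in 1 library. The summed shoot markers ran from 1345 to 6813 reads per 1000000 in WT and from 1308 to 7161 in smn2, and the summed root markers from 753 to 3323 and from 1238 to 2960. In whole seedlings, fewer cells of a type and less RNA per cell cannot be told apart.

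HEN2 itself was counted at 40.9, 29.7, 54.6 and 43.8 reads per 1000000 gene reads in WT (0 h 910, 0 h 918, 4 h 910, 4 h 918) and at 12.8, 8.62, 13.1 and 13.6 in smn2, in the same order, which is kept below. All 4 mutant libraries were below all 4 WT libraries. Exon and intron reads were tested apart, by the edgeR quasi-likelihood test with Benjamini-Hochberg adjustment, used for every adjusted p below unless another is named. Exon reads fell by 1.96 on the log2 scale (adjusted p = 0.000818). Intron reads stood at 21, 13, 18 and 13 in WT and at 10, 15, 9 and 5 in smn2 (log2 change -0.36, adjusted p = 0.744). HEN2 therefore had 3.36, 4.18, 3.51 and 3.56 intron reads per 100 exon reads in WT and 8.55, 30.6, 8.91 and 5.68 in smn2. Its ratio was called higher (log2 change 1.59 ± 0.44 SE, adjusted p = 0.0439), with its highest value in the smn2 0 h library of replicate 918, where 15 intron reads stood against 49 exon reads. The call was lost when any library but the smn2 0 h library of replicate 910 was left out (7 of 8 libraries, adjusted p up to 0.261). DESeq2 and limma did not make the call (adjusted p = 0.055 and 0.0527).

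Summed over the 2762 loci, introns took 3.09%, 3.48%, 3.36% and 3.60% of intron plus exon reads in WT. In smn2 they took 4.35%, 4.59%, 3.93% and 4.45%. Every smn2 library stood above every WT library, and the means differed by 0.948 percentage points (3.38% ± 0.221 in WT, 4.33% ± 0.283 in smn2, SD, n = 4; exact permutation p = 0.0286, two-sided, the smallest that 4 against 4 allows). Counting error was small beside this: the widest 95% exact binomial interval of a library ran from 4.41% to 4.48%. Permuting genotypes within each time gave 0.0556 and within time and replicate gave 0.125, in both cases the smallest value possible. Without the WT 0 h library of replicate 910, the deepest of the 8, the difference was 0.849 points (exact p = 0.0571). Over loci with a mean of at least 30 reads it was 1.74 points (exact p = 0.0571).

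The share was not set by a few loci alone. After the 133 loci called below were left out, it was 3.45% ± 0.233 in WT and 4.19% ± 0.309 in smn2 (SD, n = 4; exact permutation p = 0.0286). The median over loci of the log2 ratio was -4.64 ± 0.0764 in WT and -4.34 ± 0.0773 in smn2 (difference 0.303, exact permutation p = 0.0286), again without overlap between the genotypes. In the fit, the median locus changed by 0.24 on the log2 scale and 1921 of 2762 loci (69.6%) changed upward. Among the 2180 loci with at least 10 mean intron reads in both genotypes the median was 0.26 and 72.9% were upward. Single-locus changes below are to be read against this shift of 0.24. Scaling intron and exon reads separately, which removes it (median 0.01), left 80 loci called higher and 10 lower. With reads across exon junctions as denominator, chosen after seeing the data, the median was 0.10 over 2571 loci.

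**Figure D1:**
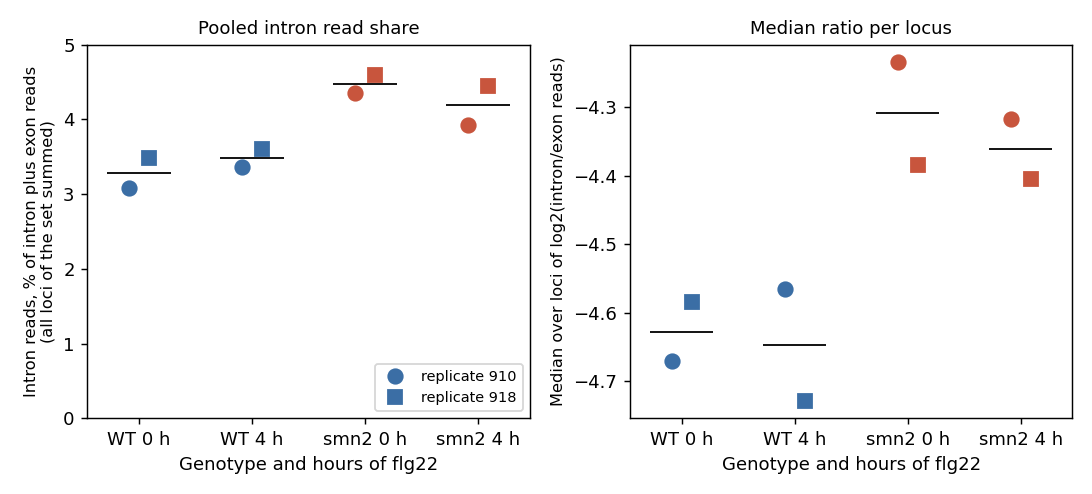
Intron reads as a percentage of intron plus exon reads summed over 2762 loci (left) and the median over loci of the log2 intron to exon read ratio (right), for each library by genotype and hours of flg22; circles are replicate 910, squares replicate 918 and lines the means of 2 libraries. The 4 smn2 libraries lie between 3.93% and 4.59%, all above the WT libraries at 3.09% to 3.60%.

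At single loci, the ratio was higher in smn2 at 129 of 2762 loci (4.67%) and lower at 4 (0.145%), over the mean of both times. The direction was thus uneven, and every one of the 129 changed at least 2-fold, 38 of them at least 4-fold (median log2 change 1.74). With the replicate number as a block, 165 rose and 7 fell. Without single libraries the higher calls came to 68 (smn2 4 h 910 left out), 73 (WT 0 h 910), 76 (WT 4 h 918), 83 (WT 0 h 918) and up to 134 (smn2 0 h 918). The groups did not overlap at 248 loci with all smn2 libraries above all WT libraries (8.98%) and at 15 with all below (0.543%). The 129 comprised 108 of the former.

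Of the 129, 60 averaged at least 10 intron reads only in smn2 and so entered through the group in which they were high. Among the 2180 loci that passed in both genotypes, 68 rose (3.12%) and 2 fell. Depth of intron reads also moved with the count: 2.32% of loci rose among the 691 loci with the fewest mean intron reads (10 to 12.4 reads) and 7.67% among the 691 with the most (25.6 reads and above). Intron length showed no such order, with 4.34%, 5.65%, 4.78% and 3.91% in 4 equal classes from the shortest to the longest. At the edge of the rule, BGLU11 entered with a mean of 10 intron reads and 1.76 against 2.24 intron reads per 100 exon reads (WT against smn2, pooled), and SCAMP4 stayed out at 9.875 with 15.04 against 46.9.

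**Figure D2:**
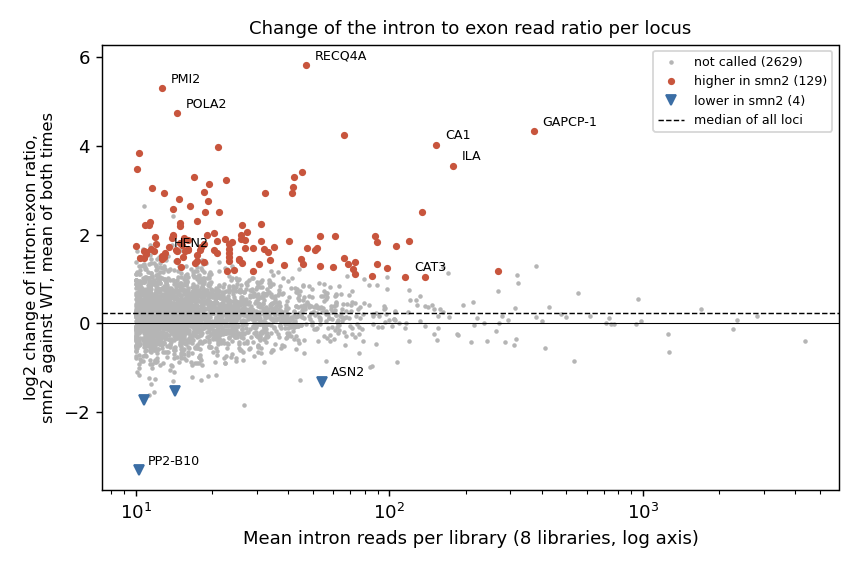
Log2 change of the intron to exon read ratio, smn2 against WT over both times, against the mean intron reads per library (log axis) for 2762 loci; red points are the 129 loci called higher, blue triangles the 4 called lower and the dashed line the median of all loci at 0.24. The loci called higher run from 1.04 to 5.83, where RECQ4A lies, and loci not called reach 2.65.

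Intron reads, not exon reads, carried most of this difference. At the 129 loci the median log2 change of intron reads was 1.84 and that of exon reads -0.01; over all 2762 loci these medians were 0.22 and -0.02. Intron reads were called higher at 103 of the 129 (166 of 2762 loci, 6.01%, were called so in all, and 4 lower, 0.145%). Exon reads were not called at 115 of the 129, higher at 9 and lower at 5, beside 81 higher (2.93%) and 20 lower (0.724%) in all. Intron reads were called higher at 106 loci without smn2 0 h 910, and exon reads at 30 without WT 4 h 918, 42 without smn2 4 h 910 and 44 without WT 4 h 910. The ratio and the intron reads share counts, so the 103 is a description and no separate support.

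Since the 129 loci were called for a higher ratio in smn2, their values here are a description and no separate support. The 129 loci held 9899 intron reads in the 4 WT libraries and 29820 in the 4 smn2 libraries. These were 2.61% and 7.95% of the intron reads of all 2762 loci. Per kilobase, which allows levels to be compared between introns and exons, intron reads of the 129 stood at a median of 4.74% of the exon level in WT and 21.1% in smn2. Over all loci with an intron length the medians were 5.86% and 7.18%. At 14 of the 129 the introns were denser than the exons in smn2, and at none in WT, beside 108 and 82 of all 2759 loci with an intron length. The 14 were AT1G17490, AT1G71530, AT1G79120, GAPCP-1, AT2G29995, AT2G44430, AT3G03360, CYP72A11, CYP72A13, RLP48, AT4G32230, AT4G35940, AT5G01990 and AT5G44010.

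**Figure D3:**
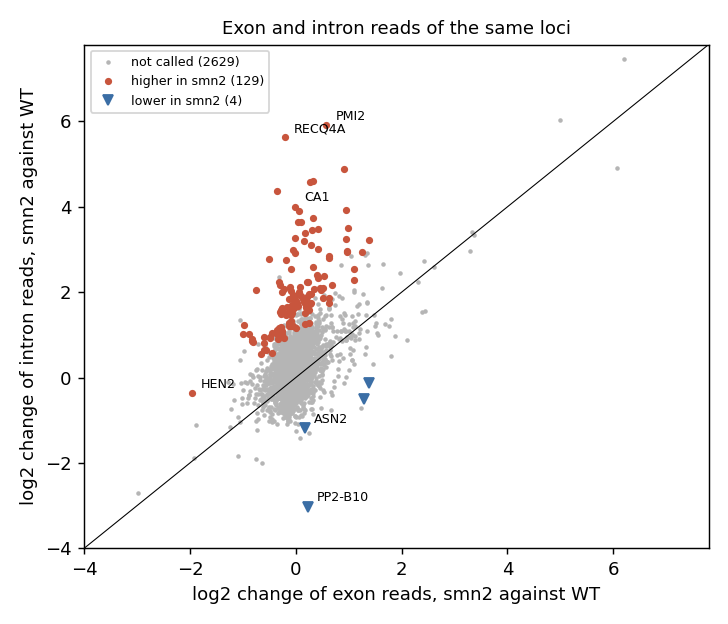
Log2 change of intron reads against log2 change of exon reads, smn2 against WT over both times, for 2762 loci; the line marks equal change. The 129 loci called higher (red) lie above the line, 96 of them within 0.5 of 0 in exon reads, and HEN2 is among the others, with exon reads that fell by 1.96 on the log2 scale.

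The largest increase was that of RECQ4A. RECQ4A, a helicase that acts in homologous recombination (AT1G10930, chr1:3647894-3655590), gave 1, 3.54, 1.52 and 0 intron reads per 100 exon reads in WT and 137.5, 62.3, 71.4 and 89.3 in smn2. The mutant values lay far above those of WT, from 9 intron reads in all 4 WT libraries against 366 in smn2, while exon reads did not pass the test (log2 change -0.20, adjusted p = 0.769). The ratio rose by 5.83 ± 0.50 on the log2 scale (SE; adjusted p = 2.9e-07). POLA2, the B subunit of DNA polymerase alpha, which primes replication (AT1G67630, chr1:25344440-25348406), gave 1.35, 4.17, 0 and 5.56 in WT and 72.5, 73.7, 91.1 and 42.9 in smn2. The groups were well apart here too, at only 74, 48, 83 and 54 exon reads in WT (log2 change 4.74 ± 0.60, adjusted p = 6.5e-05). AT5G44010, annotated as a FANCF protein of the Fanconi anemia pathway of crosslink repair, gave 19.0, 7.14, 4.17 and 8 in WT and 52.6, 183, 66.7 and 227 in smn2, from 8 and 73 intron reads. All mutant libraries were again higher (3.48 ± 0.66, adjusted p = 0.00311). RefSeq, however, has at least 308 bp of exons in what the table counts as intron at this locus. This length, like those below, is the exon length of RefSeq minus that of the table, and so a lower bound.

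GAPCP-1 had the most intron reads of the called loci. This plastid glyceraldehyde-3-phosphate dehydrogenase of glycolysis (AT1G79530, chr1:29915902-29919234) had 88, 69, 15 and 12 intron reads in WT and 1274, 735, 506 and 267 in smn2. Per 100 exon reads these were 8.29, 11.7, 4.2 and 3.66 in WT and 143, 149, 108 and 109 in smn2, so that the introns held more reads than the exons in every mutant library (log2 change 4.33 ± 0.28, adjusted p = 1e-08). The neighbouring locus AT1G79529 overlaps GAPCP-1 on the opposite strand, and whether counting used strand is not given in the sources used here, so reads of both cannot be told apart.

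CA1, the carbonic anhydrase of chloroplasts (AT3G01500, chr3:194724-198019), gave 0.533, 0.161, 0.747 and 1.31 in WT and 11.0, 9.03, 9.10 and 10.1 in smn2. The mutant values were close to each other (9.79 ± 0.917, SD, n = 4) and far above WT (0.689 ± 0.481), while exon reads did not pass the test (log2 change -0.01, adjusted p = 0.993). The ratio rose by 4.03 ± 0.33 on the log2 scale (adjusted p = 1.8e-07). RefSeq places at least 717 bp of exons in the table's CA1 introns, and reads in those exons cannot be told apart here from reads in introns. PMI2, which acts in the movement of chloroplasts in light (AT1G66840), had 3 intron reads in 1 WT library and 0 in the other 3, against 58, 18, 19 and 3 in smn2. Pooled, this was 0.606 against 16.7 intron reads per 100 exon reads, a ratio of 27.6 with a 95% counting interval of 9.17 to 136 (adjusted p = 0.000448). The smn2 4 h library of replicate 918 was lowest of the mutant at 4.55. RefSeq has exons over at least 78 of the 373 bp that the table counts as PMI2 intron.

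NPR3, a receptor of the immune hormone salicylic acid (AT5G45110, chr5:18228910-18231522), gave 0.100, 0.436, 0.476 and 0 intron reads per 100 exon reads in WT and 5.14, 2.04, 6.99 and 2.46 in smn2. The ratio was higher in every mutant library, from 6 intron reads in WT and 76 in smn2 (3.84 ± 0.60, adjusted p = 0.000584), and its exon reads did not pass (log2 change 0.07, adjusted p = 0.913). ILA, a large HEAT-repeat protein that acts in plant immunity and translation control (AT1G64790, chr1:24064937-24083428), gave 1.75, 1.65, 1.11 and 1.2 in WT and 20.5, 23.5, 12.9 and 12.1 in smn2. This was 1 of the most precisely measured changes, with 135 intron reads in WT and 1292 in smn2 (3.56 ± 0.27, adjusted p = 5.6e-08). At ILA, 1 RefSeq gene overlaps the locus on the other strand. RefSeq has exons over at least 93 of the 255 bp that the table counts as NPR3 intron, and at least 119 bp of exons in the table's ILA introns.

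GSTU5, a glutathione S-transferase of the stress-induced tau class (AT2G29450), whose only intron is printed above, gave 0.474, 2.21, 0.376 and 0.581 in WT and 14.5, 7.75, 2.84 and 8.21 in smn2. The groups did not overlap, though the highest WT and lowest smn2 libraries came close (3.29 ± 0.59, adjusted p = 0.00184). AT1G17490, annotated as like an epidermal patterning factor, which also has a single intron, gave 11.3, 10, 38.1 and 27.3 in WT and 152, 136, 343 and 226 in smn2. Its 263 bp intron thus held more reads than its exons in all 4 mutant libraries and fewer in all 4 WT libraries (3.41 ± 0.42, adjusted p = 5.7e-05), and per kilobase the intron stood at 42.6% of the exon level in WT and 548% in smn2.

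The remaining loci among the 12 largest increases have no described role in the reference. AT1G56660 gave 0.937, 1.13, 2.44 and 1.65 in WT and 42.0, 18.8, 34.4 and 21.3 in smn2 (4.25 ± 0.39, adjusted p = 6e-07). AT5G63040 gave 1.04, 0, 3.16 and 1.12 in WT and 18.0, 18.8, 34.4 and 26.1 in smn2 (3.99 ± 0.53, adjusted p = 0.000103), and its exon reads were higher too (log2 change 0.91, adjusted p = 0.0193). Both were separated by genotype in every library, as the choice required. Of the 12 loci, GAPCP-1, CA1 and ILA averaged at least 10 intron reads in both genotypes. The other 9 did so only in smn2 and entered through the group in which they were high. None of the 12 lost its call under any of the 17 to 19 alternatives fitted for it, with GSTU5 closest at an adjusted p of 0.0475. For those 9 this is a description only.

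**Figure D4:**
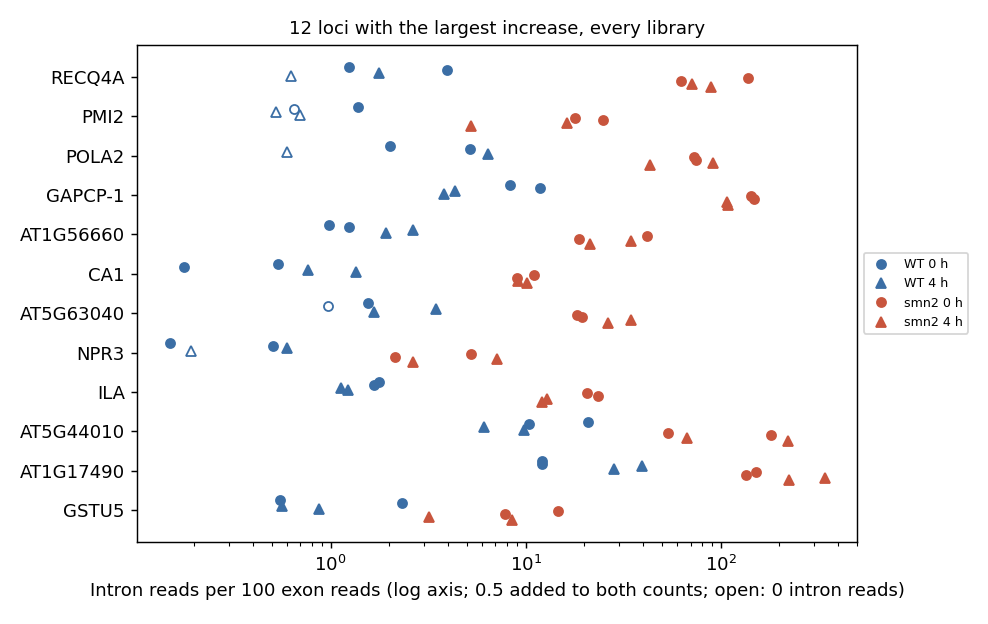
Intron reads per 100 exon reads (log axis, 0.5 added to both counts) in every library for the 12 loci with the largest increase; blue is WT, red smn2, circles 0 h, triangles 4 h and open symbols libraries with 0 intron reads. Red symbols lie to the right of all blue ones at each locus, which was a condition of the choice.

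Apart from GAPCP-1, CA1 and ILA, the called loci with most intron reads changed by 1.04 to 2.51 on the log2 scale. APT3, an enzyme of adenine salvage (AT4G22570), gave 20.3, 18.1, 42.9 and 44.0 in WT and 127, 171, 220 and 153 in smn2 (2.51 ± 0.31, adjusted p = 5.7e-05). ESP, the epithiospecifier protein that steers glucosinolate breakdown to nitriles (AT1G54040), gave 0.820, 0.633, 0.864 and 1.43 in WT and 3.56, 1.84, 3.73 and 4.63 in smn2 (1.86 ± 0.30, adjusted p = 0.000672). At both, exon reads did not pass the test and all mutant libraries were above all WT libraries. RefSeq has at least 67 bp of exons in the table's APT3 introns and at least 448 bp in those of ESP.

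For the others the call was less firm. AT2G25970, an RNA-binding protein with KH domains, rose in both kinds of read (intron log2 2.29, adjusted p = 0.000288; exon log2 1.09, adjusted p = 0.00149), and its ratio went from 12.03 ± 2.35 to 27.7 ± 6.05 (SD, n = 4; log2 change 1.19, adjusted p = 0.0135). NRT1.1, the dual-affinity nitrate transporter, went from 4.31 ± 1.14 to 8.89 ± 2.34 (1.04, adjusted p = 0.0417). CAT3, a catalase of peroxisomes, went from 0.569 ± 0.0932 to 1.17 ± 0.219 (1.05, adjusted p = 0.0285), with intron reads at a log2 change of 0.57 and exon reads at -0.44, neither of which passed. RefSeq has exons over at least 1202 of the 1386 bp that the table counts as CAT3 intron. When intron and exon reads were scaled separately, these 3 ratios no longer passed (adjusted p = 0.0656, 0.167 and 0.12), and they lost their calls without 4, 6 and 6 of the 8 libraries (adjusted p up to 0.0869, 0.223 and 0.137).

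The other called loci with a single intron are described next. ATCRT1, a RING-type ubiquitin ligase, gave 1.95, 0.901, 0.676 and 1.23 in WT and 13.5, 9.42, 8.47 and 12.6 in smn2 for an intron of 463 bp in the 5′ untranslated region (3.15 ± 0.42, adjusted p = 9.2e-05). EBF1, the F-box protein that marks the ethylene regulator EIN3 for degradation, gave 0.262, 0.141, 0.113 and 0.123 in WT and 1.23, 0.492, 0.806 and 1.55 in smn2 for its 371 bp intron (2.58 ± 0.46, adjusted p = 0.0019). AT2G29995, annotated as like the peptide PSY3, gave 53.8, 20, 143 and 9.52 in WT and 300, 343, 523 and 467 in smn2, with only 7 to 26 exon reads per WT library (3.24 ± 0.60, adjusted p = 0.00253). The 4 mutant libraries exceeded the 4 WT libraries at all 3 loci.

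AT5G12850, a CCCH zinc-finger protein, went from 0.931 ± 0.661 to 4.68 ± 0.888 for an intron of 621 bp in the 5′ untranslated region, and its exon reads rose as well (log2 change 0.99, adjusted p = 0.0179); its ratio rose by 2.51 on the log2 scale (adjusted p = 0.000886). There, 1 RefSeq gene overlaps it on the other strand. PHT1;4, a phosphate transporter of roots, went from 2.996 ± 1.25 to 10.5 ± 2.80 for a 5′ untranslated intron of 1098 bp (1.85, adjusted p = 0.00267), and RLP48, a receptor-like protein, from 10.5 ± 5.26 to 38.2 ± 6.95 (1.99, adjusted p = 0.0145). UGT85A1, a glycosyltransferase that acts on cytokinins, went from 8.08 ± 4.14 to 25.9 ± 14.98, and here the genotypes overlapped between times, with WT at 14.0 and 6.06 at 0 h and smn2 at 15.6 and 12.4 at 4 h (1.46, adjusted p = 0.0135). AT5G28300 (1.65, adjusted p = 0.0175) and AT4G05150 (1.21, adjusted p = 0.0481) had the highest adjusted p of the loci in this paragraph. Of these loci, PHT1;4 kept its call in every leave-one-out fit, while RLP48, UGT85A1, AT5G28300 and AT4G05150 lost theirs without 3, 4, 5 and 7 of the 8 libraries (adjusted p up to 0.117, 0.0786, 0.143 and 0.283). With reads across exon junctions as denominator, chosen after seeing the data, PHT1;4, UGT85A1 and AT4G05150 were not called (adjusted p = 0.102, 0.706 and 0.25).

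In all, 11 of the 91 single-intron loci were called higher (12.1%), beside 4.67% of all loci tested. The difference was not tested. Of the 11, only UGT85A1, PHT1;4 and AT4G05150 averaged at least 10 intron reads in both genotypes. The others did so only in smn2 and entered through the group in which they were high. Of all loci tested, 28.4% of those that passed only in smn2 were called higher, beside 3.12% of those that passed in both genotypes. The introns of 8 of the 11 lie between coding exons and those of 3 in the 5′ untranslated region, beside 70 and 6 of the 80 others.

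At the 4 loci called lower, the genotypes overlapped. PP2-B10 and BARS1 are named by the rule as the largest decreases at 0 h and at 4 h, and ASN2 and AT1G26580 were named after their values were seen. PP2-B10, a phloem lectin, gave 92.3, 52.2, 65 and 64 in WT and 0, 0, 66.7 and 56.3 in smn2, so that the 2 mutant libraries at 0 h had 0 intron reads beside 17 and 14 exon reads and those at 4 h were like WT (adjusted p = 0.0213). BARS1, which makes the triterpene baruol, gave 10.7, 4.88, 33.3 and 113 in WT, the last from 9 intron and 8 exon reads, and 5.36 to 8.11 in smn2 (-1.73 ± 0.49, adjusted p = 0.0481). ASN2, an asparagine synthetase, gave 13.7, 7.91, 3.58 and 4.53 in WT and 4.25, 5.46, 2.25 and 0.795 in smn2 (-1.32 ± 0.34, adjusted p = 0.0288). At AT1G26580, an ELM2-domain protein, exon reads rose (log2 change 1.38, adjusted p = 0.00301) and intron reads did not pass (-0.13), so the ratio fell by 1.53 on the log2 scale (adjusted p = 0.0401). RefSeq has exons over all 112 bp of what the table counts as its intron. In this order, the 4 calls were lost without 5, 7, 5 and 5 of the 8 libraries (adjusted p up to 0.13, 0.385, 0.175 and 0.235).

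Before flg22, the ratio was higher in smn2 at 50 loci (1.81%; 79 with the replicate block) and lower at 1 (0.0362%; 2 with the block), PP2-B10. After 4 h it was higher at 26 loci (0.941%; 45 with the block) and lower at 1 (0.0362%), BARS1. These counts rest on 2 libraries a group: without the WT 0 h library of replicate 910, 10 loci were higher at 0 h, without WT 0 h 918 it was 15 and without smn2 0 h 910 it was 28. At 4 h, 5 were higher without WT 4 h 910, 6 without WT 4 h 918, 8 without smn2 4 h 910 and 14 without smn2 4 h 918, and 17 without either WT 0 h library.

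The 2 times share no library, so loci called at one could be looked up in the other. Of the 50 loci higher at 0 h, all 50 changed upward at 4 h, 42 with an unadjusted p under 0.05 and 19 called there (median log2 change 2.05). Over all loci, 63.9% changed upward at 4 h and 8.94% did so with an unadjusted p under 0.05. Of the 26 loci higher at 4 h, 25 changed upward at 0 h, 23 with an unadjusted p under 0.05 and 19 called (median 2.91), beside 69.2% and 11.1% of all loci. Among the 2180 loci with at least 10 mean intron reads in both genotypes, which did not enter through the mutant alone, 21 were higher at 0 h. All 21 changed upward at 4 h and 18 did so with an unadjusted p under 0.05, beside 65.5% and 7.34% of the 2180. Of the 8 of these loci higher at 4 h, 8 changed upward at 0 h and 7 did so with an unadjusted p under 0.05, beside 71.9% and 9.13%. The fit shares 1 estimate of spread per locus between the times, and all loci were filtered on the mean over both times.

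A difference of the genotype effect between 0 h and 4 h was called at 0 of 2762 loci in either direction (0%), also by DESeq2 and limma; at an unadjusted p under 0.05 it was larger at 4 h at 34 and smaller at 72. At CA1 the genotype change was 4.75 ± 0.47 at 0 h and 3.30 ± 0.47 at 4 h, a difference of -1.45 ± 0.67 (SE) that was not called. Larger differences, as 4 h minus 0 h, were not called either. They include PP2-B10 (6.53 ± 1.63), AT5G57655 (5.80 ± 1.66) and BARS1 (-3.21 ± 0.98), all from few intron reads. With 4 residual degrees of freedom, a missing call does not show that the times act alike.

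**Figure D5:**
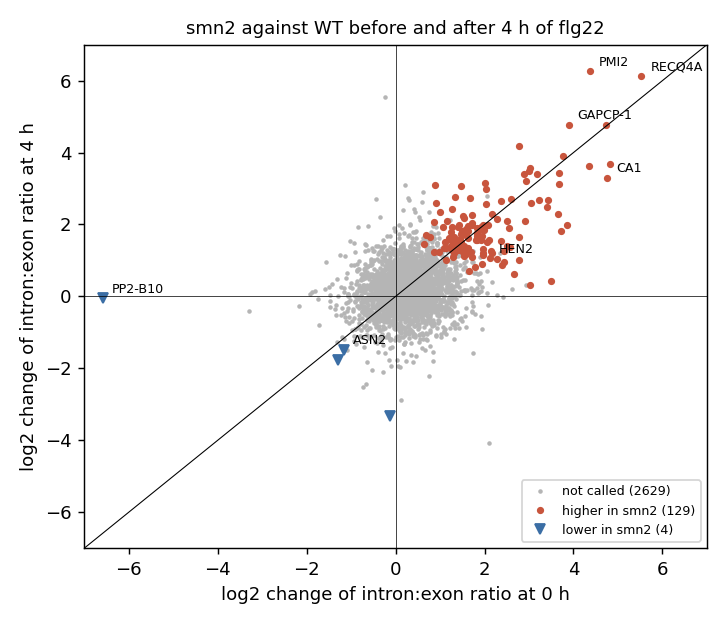
Log2 change of the intron to exon read ratio, smn2 against WT, at 4 h of flg22 against 0 h for 2762 loci; the diagonal marks equal change and colours mark calls over the mean of both times. Most red points lie in the upper right quadrant near the diagonal, and PP2-B10 lies at -6.58 at 0 h and -0.05 at 4 h.

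Within a genotype, 4 h of flg22 moved the ratio at few loci. In WT it rose at 2 loci (0.0724%; 5 with the replicate block) and fell at 4 (0.145%); in smn2 it rose at 1 (0.0362%; 7 with the block) and fell at 7 (0.253%; 12 with the block). AT4G16670 gave 13.8 and 9.84 at 0 h and 59.0 and 93.0 at 4 h in WT (2.58 ± 0.50, adjusted p = 0.0369), beside 43.5, 35.4, 58.7 and 51.9 in smn2; it overlaps AT4G16680. AT3G05350, a metallopeptidase, rose in WT (2.18, adjusted p = 0.0185) and in smn2 (1.90, adjusted p = 0.0475), but only 8.67% of its intron reads were uniquely placed and it overlaps AT3G05360, so that copy of origin is uncertain.

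The largest decreases with time rested on few reads at 1 of the times. ABCG40, a transporter of abscisic acid, had 89 and 76 exon reads in WT at 0 h and 7663 and 5436 at 4 h, while its ratio fell from 11.2 and 3.95 to 0.548 and 0.497 (-3.91, adjusted p = 0.0372); in smn2 it fell from 21.1 and 3.06 to 0.64 and 0.292 (-4.35, adjusted p = 0.0237). DIN11, an oxygenase induced in the dark, had 1 and 2 exon reads in WT at 0 h, so its ratios of 300 and 200 there rest on almost no mRNA, against 5.86 and 4.91 at 4 h (adjusted p = 0.0185). AT5G57655, a xylose isomerase, had 31 and 24 intron reads in WT at 0 h and 0 in both libraries at 4 h (adjusted p = 0.0372), beside 12, 11, 7 and 1 in smn2. In smn2, AT5G16930, an AAA-type ATPase, fell from 50.8 and 42.1 to 4.94 and 6.82 (-3.01, adjusted p = 0.0237), and AT4G26600, a methyltransferase, from 42.9 and 82.9 to 10.9 and 2.96 (-3.02, adjusted p = 0.0475). AT5G16930 overlaps AT5G16940. RefSeq has at least 389 bp of exons in the table's AT4G26600 introns and at least 83 bp in those of ABCG40. Without any 1 of the 4 WT libraries, no locus was called for time in WT, and in smn2 none was called without any WT library or either 4 h smn2 library.

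Genes of RNA surveillance and splicing are given next, as lists. Of 21 exosome genes and cofactors, 5 had enough reads and 1, HEN2, was called higher by edgeR and 0 by DESeq2 or limma (median log2 change -0.08, beside 0.24 over all loci). RRP6L1, an exonuclease of the nuclear exosome, had 11.7 ± 3.34 intron reads per 100 exon reads in WT and 6.07 ± 0.708 in smn2, with all mutant libraries lower, but did not pass (-0.87, adjusted p = 0.31). SOP1, a zinc-finger cofactor of HEN2, had more exon reads in smn2 (log2 change 1.03, adjusted p = 0.0207) and a ratio of 1.54 ± 0.276 against 2.28 ± 0.947 in WT (adjusted p = 0.464).

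Of 20 SR splicing factors, which bind exons and help choose splice sites, 13 were tested and 0 called (median log2 change 0.14; DESeq2 and limma also called 0, and 0 rose and 2 fell at an unadjusted p under 0.05). The members farthest down were SR34b, from 26.97 ± 14.02 in WT to 10.6 ± 3.64 in smn2 (-1.29, adjusted p = 0.0578), and SR30, from 4.30 ± 1.83 to 1.86 ± 0.548 (-1.17, adjusted p = 0.0989). At both, exon reads were higher in smn2 (log2 change 2.1 and 1.46, adjusted p = 0.000818 and 0.000824) and intron reads did not fall (0.88 and 0.31). U2AF65A, which recognises the 3′ splice site, likewise had more exon reads (1.53, adjusted p = 0.000818) at a ratio of 0.775 ± 0.417 and 0.515 ± 0.107 (adjusted p = 0.676). Of 17 core spliceosome genes 4 were tested, and of 5 other RNA-binding proteins 3, with 0 called in either list by edgeR, DESeq2 or limma, and 0 at an unadjusted p under 0.05 (medians 0.03 and -0.38).

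Among 6 genes known for poly(A) sites in introns or for long regulated introns, 4 were tested and 0 called by edgeR, DESeq2 or limma (median 0.43; 1 was lower at an unadjusted p under 0.05). FCA, the flowering-time protein whose pre-mRNA ends early in an intron, had 6.84 ± 1.94 intron reads per 100 exon reads in WT and 3.004 ± 0.762 in smn2, with all mutant libraries lower (-1.11, adjusted p = 0.116), and its exon reads were higher (0.68, adjusted p = 0.0232). IBM1, a histone demethylase with a long regulated intron, stood at 3.70 ± 1.77 and 5.55 ± 1.65 (0.62, adjusted p = 0.522).

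The immune lists gave 0 calls in either direction by edgeR, DESeq2 or limma; at an unadjusted p under 0.05, 1 NLR gene and 2 flg22 response genes were higher. Of 29 NLR immune receptor genes 5 were tested (median 0.07); RPS6, the receptor known as SMN1, stood at 2.37 ± 0.266 in WT and 2.45 ± 0.652 in smn2 (0.02 ± 0.29 SE, adjusted p = 0.993), and RPP8 at 0.935 ± 0.215 and 1.76 ± 0.596 (0.96, adjusted p = 0.213). Of 29 flg22 response genes 6 were tested (median 0.12), with RBOHD, the oxidase of the immune burst, highest at 0.786 ± 0.406 and 1.59 ± 0.847 (1.002, adjusted p = 0.142). Of 20 clock genes 10 were tested and 0 called by edgeR, DESeq2 or limma (median 0.39; 2 were higher at an unadjusted p under 0.05); GI stood at 0.673 ± 0.22 and 1.41 ± 0.435 and TOC1 at 1.90 ± 0.32 and 3.67 ± 1.14, both without overlap of the genotypes (adjusted p = 0.137 and 0.181). Of 24 photosynthesis genes 16 were tested and 1, CA1, was called (median 0.14).

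Annotation of the introns touches part of these calls. Of the 129 loci, 24 overlap another locus of the table and 39 (30.2%, beside 24.5% of all loci tested) a RefSeq gene. Of the 128 matched to RefSeq, at least 62 (48.4%, beside at least 45.0% of the 2743 loci matched) have RefSeq exons inside what the table counts as intron. These are the loci with more exon length in RefSeq than in the table, and positions of exons were not compared. Leaving out all loci that overlap a RefSeq gene, 97 rose and 5 fell, and all 88 of the 129 that could still be tested were among them. Counting only uniquely placed reads, 129 of 2594 loci rose and 3 fell. Of the 129 reported above, 123 could still be tested and 121 were called again.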

How the data were processed

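Whole-seedling RNA was counted in 8 libraries, 2 per genotype and time, grouped by the titles in the labels. The authors deposited 1 table that holds, per the file headers, unnormalized read counts per locus for exons, introns and exon junctions. TAIR10 is the build named in the submitters' processing notes. For the aligner, the annotation release and the strand of counting nothing is given in the sources used here; differences between Landsberg erecta and that build were not taken into account. RefSeq on TAIR10.1 supplied symbols (28009 loci matched), overlaps and sequences; of 28009 matched loci 14056 share a start or end with the table, and positions of genes are the table's, counted from 1. The 0 columns of unmapped samples needed no exclusion.

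Loci were chosen with the stated filter of 10 mean reads. Intron and exon counts of all 8 libraries entered 1 edgeR 4.0.16 quasi-likelihood fit in R 4.3.3, with a term per library and an intron term per group (4 residual degrees of freedom, common biological coefficient of variation 0.203). Intron and exon columns of a library shared 1 scaling, so depth cancels in the ratio. P-values were adjusted by Benjamini-Hochberg over all 2762 loci in each of 6 comparisons, with a threshold of 0.05. Intron reads and exon reads were also fitted alone, with TMM factors. Per-library values were compared by exact permutation. DESeq2 1.42.0, limma 3.58.1 (pseudocount 0.5), other filters and scalings, unique reads, a fold threshold of 1.5, a replicate block and leave-one-out fits were alternatives. Replicate numbers 910 and 918 mark different sequencing runs per the file headers and so pair the libraries; the differences between both replicates correlated at 0.0929 to 0.136 across loci between groups.

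Members, gene lists and tests were chosen with earlier results of these data known. Named were HEN2, the 12 largest increases and decreases with called, non-overlapping ratios, the 8 called loci with most intron reads, called list members, the 3 largest changes in each direction of the other comparisons, and, chosen after their values were seen, the called single-intron loci, 2 of the 4 decreases, list members with the largest changes or known roles, and the 14 loci with denser introns. Intervals cover counting error only, since reads are not independent molecules.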

Additional observations from a re-analysis of the deposited data

Results flagged for a closer look

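In 9 of 80 groups of 4 libraries examined, the highest or lowest library lay far from the other 3; chance flags about 1 in 20 groups. All values are intron reads per 100 exon reads. In WT, the 0 h 910 library was high for PMI2 (1.19, from 3 intron reads, with 0 in the other 3 libraries), the 0 h 918 library was high for GSTU5 (2.21, from 9 intron reads), and the 4 h 910 library was low for RLP48 (2.63, from 1 intron read). In smn2, the 0 h 918 library was high for HEN2 (30.6), and the 0 h 910 library was high for DIN11 (100, from 1 intron and 1 exon read) and for ABCG40 (21.1, from 12 intron and 57 exon reads). The smn2 4 h 918 library, the shallowest of the 8, was low for AT5G57655 (0.19, from 1 intron read) and for AT5G12850 (3.36), and high for AT1G26580 (0.913). DIN11 and ABCG40 had few exon reads at 0 h in both genotypes, so these values differ between times within a genotype. PMI2, GSTU5 and AT5G12850 kept their calls without each single library, while HEN2, RLP48 and AT1G26580 did not.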

How the results depend on the processing

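Counts are given as loci higher, then loci lower, in smn2 or at 4 h; a count not mentioned was within 1.5 times the reported one. For the mean over both times (129 and 4 reported), DESeq2 gave 93 and 1 and limma 111 and 2. Of the 129, 92 were called again by DESeq2, 108 by limma and 91 with a filter of 5 reads. Separate scaling of intron and exon reads gave 80 and 10, a filter of 5 reads 2 lower, a filter of 30 reads 45 and 2, a test against a fold of 1.5 gave 65 and 0, the replicate block 7 lower, and junction reads as denominator, chosen after seeing the data, 67 higher; of the 129, 41 of the 43 tested at 30 reads and 66 of the 115 tested with junction reads were called again. At 0 h (50 and 1), separate scaling gave 32 higher, 30 reads 23 and 0, the fold of 1.5 gave 31 higher, the block 79 and 2, the 4 libraries alone 31 and 0, and junction reads 30 and 0. At 4 h (26 and 1), DESeq2 gave 16 higher, separate scaling 16, 5 reads 13 and 0, 30 reads 0 lower, the fold of 1.5 gave 13 and 0, the block 45 higher, the 4 libraries alone 0 lower, and junction reads 14 higher. For time in WT (2 and 4), limma gave 2 lower, 5 reads 1 higher, 30 reads 0 lower, unique reads 1 higher, the fold of 1.5 gave 0 and 2, the block 5 higher, and leaving out loci that overlap in the table or in RefSeq (the latter chosen after seeing the data) 0 higher. For time in smn2 (1 and 7), DESeq2 gave 0 and 4, limma 0 and 0, separate scaling 2 higher, 5 reads 0 and 1, 30 reads 0 and 0, unique reads 0 and 3, the fold 0 and 0, no table overlaps 0 and 1, no RefSeq overlaps 2 and 4, the block 7 and 12, the 4 libraries alone 0 and 0, and junction reads 0 and 4. Intron reads under the block gave 9 lower (4 reported).

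Leaving out 1 library at a time, the lone sample of its group being assumed to vary like the others, gave 68 to 134 higher and 1 to 6 lower over both times, 10 to 51 and 0 to 1 at 0 h, 5 to 37 and 0 to 1 at 4 h, 0 to 2 and 0 to 4 for time in WT, and 0 to 3 and 0 to 6 for time in smn2. Intron reads gave 106 to 160 and 2 to 4, and exon reads 30 to 81 and 5 to 21. The pooled share differed by 0.849 to 1.08 points and the median log2 ratio by 0.269 to 0.327. At 30 reads the share differed by 1.74 points (exact permutation p = 0.0571). By exact permutation within time (p = 0.0556) or with the replicate block (p = 0.125), the share difference of 0.948 and the median difference of 0.303 cannot reach 0.05. Under all alternatives run, 567 of 683 values of named genes kept direction and side of the threshold, 112 lost the call and 4 gained one; 0 called values changed sign, and 4 values of ABCG40, not called between genotypes, did (the 0.13 reported came to -0.70 at the lowest). The causes were not tested. The depth of intron reads, with a filter at 10, limits the number of loci that could be tested.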

Other observations

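The 12 mitochondrial loci of the set gave 0 calls by edgeR, DESeq2 or limma. Their median log2 change of the intron to exon read ratio was 0.02, with a range from -0.17 to 0.32, 6 of 12 above 0 and 0 at an unadjusted p under 0.05. The 2750 nuclear loci had a median of 0.24 and 1915 above 0. The difference between the compartments was not tested. On the nuclear chromosomes 1 to 5, the ratio was called higher at 5.89%, 5.5%, 4.17%, 3.97% and 3.72% of the loci tested, and the spread between chromosomes was not tested.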
